A study of Homo sapiens with 24 samples.

Results

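The genes described here are 10 feedback regulators of the ERK pathway, taken by symbol as a readout of ERK output: the MAP kinase phosphatase genes DUSP1, DUSP4, DUSP5, DUSP6 and DUSP7, the Sprouty genes SPRY2 and SPRY4, the SPRED genes SPRED1 and SPRED2, and PHLDA1. They are 10 of the 19702 genes in the count table, and all 10 passed the filter on low counts in both cell lines. Their mRNA was measured by sequencing in PC9 and H1975, established human lung adenocarcinoma lines with activating mutations of the receptor gene EGFR. Within each line 4 groups of 3 libraries were made, 24 in all: almonertinib, which binds mutant EGFR covalently and blocks it, paclitaxel, a microtubule-stabilising taxane, the combination of both drugs, and untreated control cells. PC9 cells were given 2 nM almonertinib or 0.3 nM paclitaxel, and H1975 cells 1 nM almonertinib or 1 nM paclitaxel. The labels give no separate doses for the combination. All groups were collected at 24 h. Since the doses differed between the lines, cell line and dose cannot be told apart in any comparison of treatment effects between them.

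EGFR activates RAS and the kinases RAF, MEK and ERK, and active ERK switches on genes whose products shut the same pathway down. The DUSP proteins remove phosphate from MAP kinases: DUSP6 and DUSP7 act on ERK in the cytoplasm, DUSP4 and DUSP5 act in the nucleus, and DUSP1 is a nuclear, stress-inducible phosphatase that also acts on p38 and JNK. Sprouty proteins block signalling between receptor and RAS, SPRED proteins bring the RAS inactivator neurofibromin to the membrane, and PHLDA1 is a pleckstrin homology-like domain protein that growth factors induce. In EGFR-mutant lung cancer cells the mRNAs of several of these genes are used as a readout of ERK output.

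Library totals ran from 14232299 to 24245314 counts, and the members had between 27 and 4947 raw counts in a library. Whether the 3 repeats were grown separately is not in the labels, so p-values measure the spread between libraries, which may be technical. Libraries of a group differed by more than counting noise, with a chi-square per degree of freedom of at least 3.78. Epithelial keratin KRT7 was at 4066 to 8745 CPM over both lines, whereas the blood cell marker PTPRC and the fibroblast marker COL3A1 had at most 1 count in any library. H1975 almonertinib library 1 correlated least with its own group (r = 0.970). Libraries also differed in how their levels followed transcript length. Across genes, transcript length and a library's deviation from the mean of its line had a Spearman correlation of 0.237 to 0.288 in PC9 paclitaxel libraries, against -0.220 to -0.132 in PC9 control libraries, of -0.364 in PC9 almonertinib library 3 and of -0.284 in H1975 almonertinib library 1. In H1975, paclitaxel library 1 was at 0.299, against -0.395 and -0.407 in the other paclitaxel libraries, and control library 3 was at 0.300, against -0.211 and -0.208. The mitochondrial share was 2.50% in H1975 paclitaxel library 1, against 1.04% and 0.977% in libraries 2 and 3 of that group, and 0.475% to 0.855% in PC9 almonertinib libraries, against 1.23% to 1.39% in PC9 controls. The part of that share in the results was not tested. Values with a smooth trend on length and GC content removed are given beside the member calls that they change.

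Promoter sequences are shown for 6 members. DUSP6, whose level under the combination in PC9 lay below the sum of both drugs' effects, and DUSP1, DUSP7, SPRY2 and PHLDA1, whose levels lay above it, kept those calls with the length and GC trend removed. SPRY4, which did not, is shown beside its relative SPRY2. On GRCh38 (GENCODE v29) the DUSP6 gene spans chr12:89347232-89353271, DUSP1 chr5:172768090-172771195, SPRY2 chr13:80335976-80340951, SPRY4 chr5:142310427-142326455, DUSP7 chr3:52048919-52056550 and PHLDA1 chr12:76025447-76033932. The sequences are the 250 bases before a RefSeq start on GRCh38.p14, all on the minus strand, written 5′ to 3′ in lower case. Capitals mark the cyclic AMP response element TGACGTCA or its core TGACG, searched on both strands so that CGTCA is marked too, and the TATA box TATAAA. The core lies within the full element and so overlaps it. For SPRY2, RefSeq gave 3 starts, and only the stretch before the most upstream one, which held the core, is shown. The stretches before its other starts held neither the core nor a TATA box.
DUSP1 promoter, chr5:172771196-172771445: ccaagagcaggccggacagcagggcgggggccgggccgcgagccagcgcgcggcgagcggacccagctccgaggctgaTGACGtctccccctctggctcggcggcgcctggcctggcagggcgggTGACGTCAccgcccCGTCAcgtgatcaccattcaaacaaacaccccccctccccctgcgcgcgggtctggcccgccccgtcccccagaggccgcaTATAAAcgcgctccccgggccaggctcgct
DUSP6 promoter, chr12:89352502-89352751: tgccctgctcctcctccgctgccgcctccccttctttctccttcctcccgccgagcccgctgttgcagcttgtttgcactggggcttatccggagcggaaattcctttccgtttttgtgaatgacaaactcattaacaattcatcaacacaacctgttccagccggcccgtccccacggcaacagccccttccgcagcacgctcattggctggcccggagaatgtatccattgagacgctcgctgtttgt
SPRY2 promoter, chr13:80341127-80341376: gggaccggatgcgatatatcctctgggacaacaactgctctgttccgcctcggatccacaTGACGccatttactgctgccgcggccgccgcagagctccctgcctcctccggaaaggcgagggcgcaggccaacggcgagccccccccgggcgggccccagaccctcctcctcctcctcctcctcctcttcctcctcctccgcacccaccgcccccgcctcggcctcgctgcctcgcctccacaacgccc
SPRY4 promoter, chr5:142324248-142324497: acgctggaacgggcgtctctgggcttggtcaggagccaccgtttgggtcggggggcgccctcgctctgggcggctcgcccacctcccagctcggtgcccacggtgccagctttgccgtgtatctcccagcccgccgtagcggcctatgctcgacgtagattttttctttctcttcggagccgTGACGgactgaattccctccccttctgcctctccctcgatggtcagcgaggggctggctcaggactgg
DUSP7 promoter, chr3:52056572-52056821: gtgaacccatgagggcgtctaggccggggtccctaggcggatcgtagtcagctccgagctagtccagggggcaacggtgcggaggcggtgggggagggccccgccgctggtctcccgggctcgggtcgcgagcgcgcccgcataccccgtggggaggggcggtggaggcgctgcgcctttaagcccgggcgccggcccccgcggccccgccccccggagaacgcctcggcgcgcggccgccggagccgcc
PHLDA1 promoter, chr12:76031777-76032026: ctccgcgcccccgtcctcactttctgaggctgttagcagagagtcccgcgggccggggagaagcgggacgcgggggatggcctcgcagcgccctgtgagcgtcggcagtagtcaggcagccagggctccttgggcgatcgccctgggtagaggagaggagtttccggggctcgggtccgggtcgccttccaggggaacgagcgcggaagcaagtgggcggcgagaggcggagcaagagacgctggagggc
The DUSP1 promoter held the full element at positions -125 to -118 from the start and a TATA box at -30 to -25. Windows of 300 bases, which add the 50 bases after the start, were available for 8 of the 10 members, 11 windows in all. The full element was in 1 of those 11 windows, against 1.85% of all 35116 RefSeq windows. The core TGACG was in 4 of them, those of DUSP1, SPRY2, SPRY4 and SPRED2, against 24.6% of all windows. The TATA box was in 2, in DUSP1 and SPRED2, against 11.5% of all windows, and the AP-1 site TGANTCA was in 1, in SPRED2, against 7.71%. No member window held the ETS site CCGGAAGT (4.14% of all windows), the CArG box (1.29%) or the Capicua octamers TGAATGAA (1.65%) and TGAATGGA (1.03%). The DUSP6, DUSP7 and PHLDA1 windows held none of the motifs searched. Of the windows shown, those of DUSP6, SPRY4 and PHLDA1 lie inside the gene spans given and do not cover the outermost start. These matches describe letters in short windows only.

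In untreated cells the lines differed most in DUSP6, SPRY2 and DUSP4. DUSP6 mRNA was at 42.6, 47.9 and 51.9 CPM in PC9 control libraries, against 3.14, 2.99 and 4.58 CPM in H1975 control libraries, 13.2-fold higher in PC9 (edgeR adjusted p = 1.06e-14). SPRY2 was 5.71-fold, DUSP4 4.78-fold and SPRY4 3.27-fold higher in PC9. DUSP1 and DUSP5 were lower in PC9, by log2 values of -0.61 ± 0.17 and -0.82 ± 0.17 (SE). Thus 6 of 10 members differed between the untreated lines, 4 higher in PC9 (34.9% of 13380 genes) and 2 lower (33.8%), where 68.7% of genes differed in either direction. SPRED1, DUSP7, SPRED2 and PHLDA1 did not pass the test. With the length and GC trend removed, the median log2 value over all genes was -0.13, against -0.015 without removal. DUSP7 (-0.29, edgeR adjusted p = 0.0150) and SPRED2 (-0.59, edgeR adjusted p = 2.81e-05) were then called lower in PC9 as well.

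Ordered by level per kilobase of transcript, DUSP4 led the PC9 control libraries with 46.6 ± 0.65 CPM per kb (SD, n = 3), ahead of DUSP5 with 22.8 ± 0.94, PHLDA1 with 20.3 ± 0.20 and DUSP1 with 15.5 ± 2.25 CPM per kb. DUSP1, DUSP7, SPRY2, DUSP6 and SPRED2 followed as a run in which each differed from its neighbour by less than the sum of both SDs. SPRY4 was at 6.32 and SPRED1 at 0.843 CPM per kb. In H1975 control libraries DUSP5 led with 40.2 ± 3.69 CPM per kb, ahead of DUSP1 with 23.6 ± 2.78, PHLDA1 with 17.9 ± 1.01 and DUSP7 with 13.97 ± 2.86 CPM per kb. DUSP4 stood only sixth there, at 9.75 CPM per kb, and SPRED1 and DUSP6 came last at 0.917 and 0.812 CPM per kb, a difference within their spread. DUSP7 and SPRED2 were also within their spread in H1975.

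**Figure D1:**
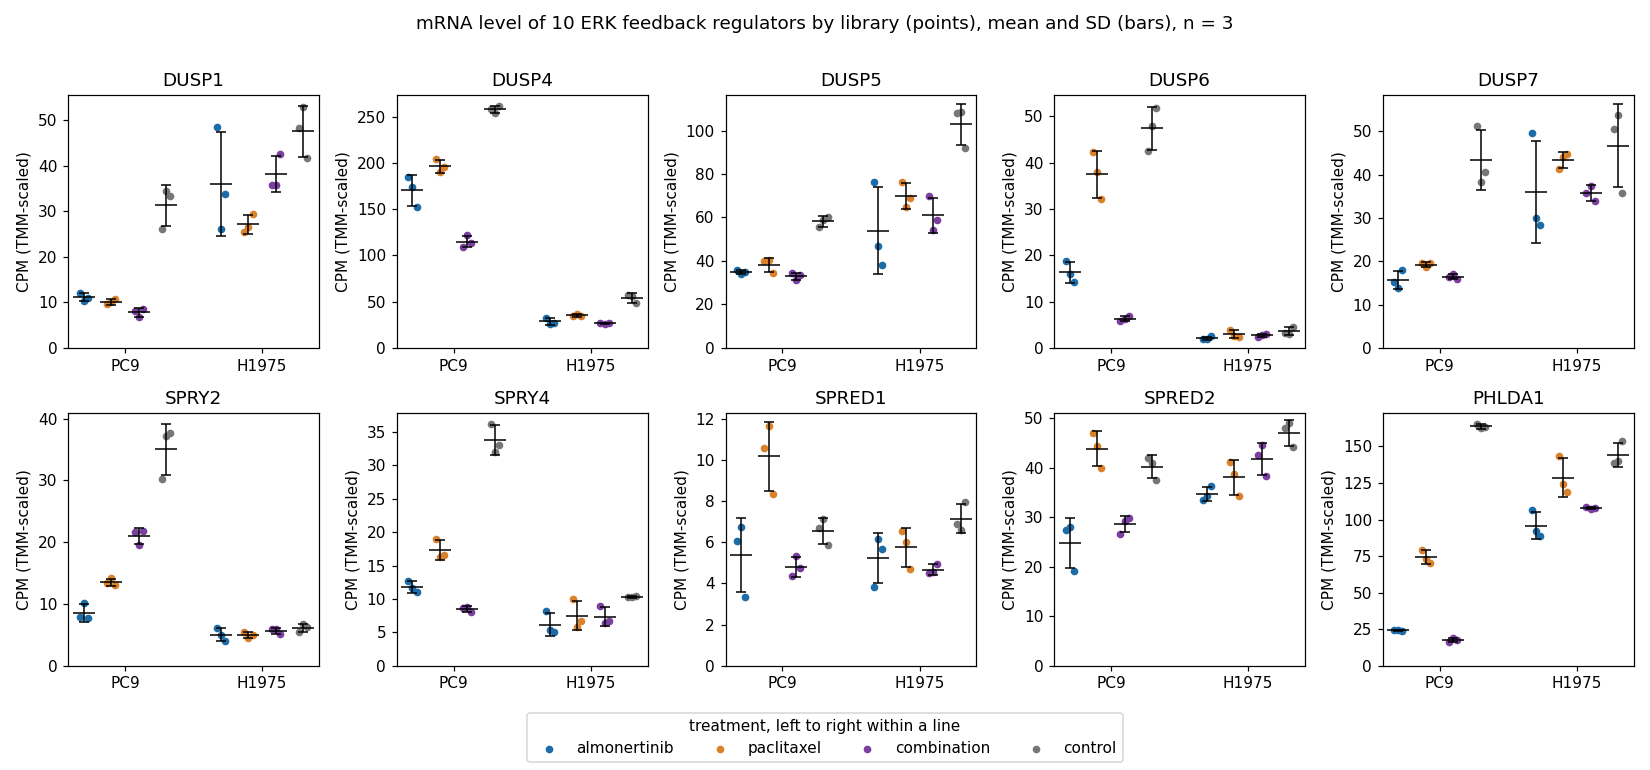
Level of each member as TMM-scaled CPM in all 24 libraries; points are libraries, long bars the mean and error bars the SD of 3 libraries, with treatments in the order of the legend within each line. In PC9, DUSP6 sat between 5.91 and 6.88 CPM under the combination and between 42.6 and 51.9 CPM in the controls, whereas SPRY2 was higher under the combination than under either drug alone; in H1975 DUSP6 stayed under 5 CPM throughout.

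Against control, 9 of 10 members fell in PC9 under almonertinib, where 56.7% of 12796 genes were called, 27.8% lower and 28.9% higher. The median log2 fold change of the members was -1.48, against 0.03 over all genes tested. The libraries of the 2 groups did not overlap for 9 members, against 56.2% of all genes. Paclitaxel alone lowered 8 members and raised 1, where 55% of genes were called, 28% lower and 27% higher, with a member median of -0.81 against -0.01 over all genes, and 9 members did not overlap (66.2% of genes). Under the combination 9 members fell, where 50.7% of genes were called, 26% lower and 24.7% higher, with a member median of -1.29 against 0.0041, and all 10 members did not overlap (62.9% of genes). Fewer cells with a given mRNA and less of it per cell cannot be told apart in these bulk libraries.

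**Figure D2:**
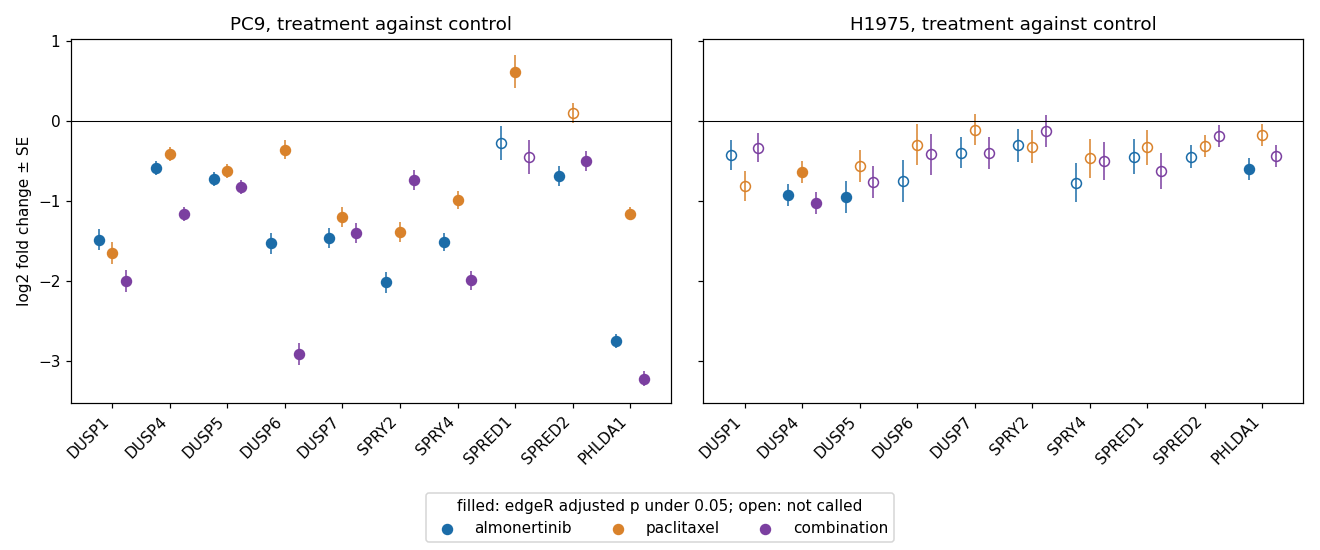
Log2 fold change against control (points, bars are SE) of the 10 members in PC9 (left) and H1975 (right), with filled points for an edgeR adjusted p under 0.05. In PC9 the values ran from -3.23 for PHLDA1 under the combination to 0.61 for SPRED1 under paclitaxel, and in H1975 from -1.03 for DUSP4 under the combination to -0.11 for DUSP7 under paclitaxel.

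DUSP6 encodes the cytoplasmic phosphatase most specific for ERK. In PC9 it was at 18.8, 16.01 and 14.2 CPM under almonertinib, 42.2, 38.04 and 32.2 CPM under paclitaxel, and 5.91, 6.19 and 6.88 CPM under the combination, against 42.6, 47.9 and 51.9 CPM in control cells. All treated libraries lay below the controls, paclitaxel library 1 by under 1 CPM, and the combination libraries lay below all almonertinib libraries. Its log2 fold change was -0.36 ± 0.12 under paclitaxel (edgeR adjusted p = 0.0195), a call that was lost without control library 2 (-0.35) or 3 (-0.30) or paclitaxel library 2 (-0.35) or 3 (-0.24). The combination was lower than almonertinib by a log2 value of -1.38 ± 0.14 (edgeR adjusted p = 4.21e-06). Added on the log2 scale, the 2 drugs alone gave -1.89, while the combination gave -2.91. The interaction, the difference of these values, was -1.02 ± 0.18 (edgeR adjusted p = 0.000378). DUSP6 was the member whose combination level was furthest below that sum.

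DUSP7, the other cytoplasmic ERK phosphatase, fell under every treatment of PC9. Its levels were 15.1, 13.9 and 18.0 CPM under almonertinib, 19.7, 18.6 and 19.5 CPM under paclitaxel and 16.4, 17.0 and 15.9 CPM under the combination, against 51.2, 38.3 and 40.6 CPM in control cells. All 9 treated libraries lay below all control libraries. Log2 fold changes were -1.47, -1.20 and -1.41, each with an SE of 0.12 or 0.13, and the combination differed from almonertinib by 0.06 ± 0.13 and from paclitaxel by -0.21 ± 0.13, neither called. With the trend removed the difference from paclitaxel was called (-0.44 ± 0.12, edgeR adjusted p = 0.00585). The sum of the single effects was -2.66, so the interaction was 1.26 ± 0.18 (edgeR adjusted p = 4.90e-05).

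Among the nuclear phosphatases, DUSP1 also fell under every treatment. It was at 12.03, 10.3 and 10.99 CPM under almonertinib, 9.52, 9.99 and 10.7 CPM under paclitaxel and 8.19, 6.74 and 8.61 CPM under the combination, against 26.0, 34.3 and 33.4 CPM in PC9 control cells. The combination libraries lay below all those of either drug. The log2 difference was -0.51 ± 0.14 against almonertinib (edgeR adjusted p = 0.0164) and -0.35 ± 0.14 against paclitaxel (edgeR adjusted p = 0.0530), not called, or -0.48 with the trend removed (edgeR adjusted p = 0.00801), called. The call against almonertinib was lost without almonertinib library 1 (-0.45) or combination library 2 (-0.40). Against control the combination was 3.99-fold lower, short of the sum of -3.14 on the log2 scale, and the interaction was 1.14 ± 0.19 (edgeR adjusted p = 0.000221).

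DUSP4 was the only member called lower in all 6 comparisons of a treatment with control over both lines, though not under every alternative. In PC9 it was at 185, 174 and 152 CPM under almonertinib, 204, 189.8 and 196 CPM under paclitaxel and 109, 122 and 114 CPM under the combination, against 259, 254 and 262 CPM in control cells. Each group of treated libraries lay apart from the controls and the combination lay below both drugs. The combination value of -1.17 ± 0.09 was near the sum of -1.01, with an interaction of -0.16 ± 0.12 that did not pass the test. With the length and GC trend removed that interaction was -0.45 ± 0.10 (edgeR adjusted p = 0.00165), and without almonertinib library 3 it was called too (-0.25, edgeR adjusted p = 0.0302). DUSP5, a nuclear phosphatase selective for ERK, was at 35.99, 33.97 and 34.9 CPM under almonertinib, 40.1, 40.4 and 34.7 CPM under paclitaxel and 34.4, 31.3 and 33.5 CPM under the combination, against 55.6, 58.8 and 60.3 CPM in PC9 control cells. The almonertinib group overlapped the other treated groups, and all 3 lay below the controls, with log2 fold changes of -0.73, -0.62 and -0.82 under almonertinib, paclitaxel and combination. Its interaction of 0.53 ± 0.12 was called (edgeR adjusted p = 0.00249), but it was 0.23 with the trend removed (edgeR adjusted p = 0.149). The combination differed from paclitaxel by -0.20 ± 0.09, not called, but was called lower without paclitaxel library 3 (-0.28) and with the trend removed (-0.36, edgeR adjusted p = 0.00336).

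Both Sprouty genes fell against control under the combination in PC9, but they differed in opposite directions from either drug alone. SPRY2 was at 7.83, 10.2 and 7.68 CPM under almonertinib, 13.4, 14.2 and 13.0 CPM under paclitaxel and 21.7, 19.5 and 21.9 CPM under the combination, against 30.3, 37.2 and 37.7 CPM in control cells. The combination libraries thus lay above every library of either drug and below every control library. The combination exceeded almonertinib by 1.28 ± 0.13 on the log2 scale (edgeR adjusted p = 4.43e-06) and paclitaxel by 0.65 ± 0.12 (edgeR adjusted p = 0.000555). The sum of the single effects was -3.41 and the combination value -0.74, and the interaction of 2.67 ± 0.18 (edgeR adjusted p = 1.04e-08) stayed between 2.46 and 2.81 under every alternative and every library left out.

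SPRY4, by contrast, was lowest under the combination, with 8.67, 8.81 and 8.07 CPM. It was at 12.7, 11.7 and 11.04 CPM under almonertinib and 19.0, 16.2 and 16.6 CPM under paclitaxel, against 36.3, 32.0 and 33.1 CPM in control cells. None of the 4 groups overlapped another. The combination was lower than almonertinib by -0.48 ± 0.12 (edgeR adjusted p = 0.00908) on the log2 scale, and 2.01-fold lower than paclitaxel. The interaction of 0.51 ± 0.16 (edgeR adjusted p = 0.0168) was 0.45 without paclitaxel library 2 and 0.23 with the length and GC trend removed, and neither of these was called.

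PHLDA1 showed the largest fall of the members in PC9 under almonertinib and the combination, though not under paclitaxel (-1.16, against -1.65 for DUSP1). In PC9 it was at 24.3, 24.4 and 23.8 CPM under almonertinib, 79.4, 73.2 and 70.4 CPM under paclitaxel and 16.1, 19.2 and 17.3 CPM under the combination, against 165, 162 and 164 CPM in control cells. The 4 groups did not overlap. Fold changes were 6.74-fold lower under almonertinib, 2.24-fold lower under paclitaxel and 9.35-fold lower under the combination, and the interaction was 0.69 ± 0.12 on the log2 scale (edgeR adjusted p = 0.000342). PHLDA1 overlaps exons of AC011611.3 and AC011611.4 on the opposite strand, and DUSP6 overlaps AC024909.2. Reads of such partners cannot be told apart, since the strand setting of the counting is not given.

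The SPRED genes showed both directions in PC9. SPRED2 was at 27.3, 28.1 and 19.1 CPM under almonertinib, 47.1, 44.3 and 40.02 CPM under paclitaxel and 26.7, 29.3 and 29.9 CPM under the combination, against 42.04, 41.03 and 37.5 CPM in control cells. It fell under almonertinib (-0.69 ± 0.13) and the combination (-0.50 ± 0.13), while its paclitaxel value of 0.10 ± 0.12 did not pass the test. SPRED1 was low throughout, at 6.04, 6.74 and 3.36 CPM under almonertinib, 10.6, 11.6 and 8.34 CPM under paclitaxel and 4.36, 5.32 and 4.75 CPM under the combination, against 6.69, 7.11 and 5.88 CPM in control cells. Its paclitaxel libraries lay above all controls (0.61 ± 0.21, edgeR adjusted p = 0.0196), and it was the only member called higher against control. The direction of SPRED1 turned with the length and GC trend removed, to -0.14 ± 0.13 under paclitaxel (edgeR adjusted p = 0.382), and SPRED1 was then called lower under almonertinib (-0.83) and the combination (-0.82). The paclitaxel call was also lost without control library 3 (0.54) or paclitaxel library 2 (0.53). SPRED1 has a long transcript, of 7780 bases, and the part of transcript length in this result was not tested further.

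**Figure D3:**
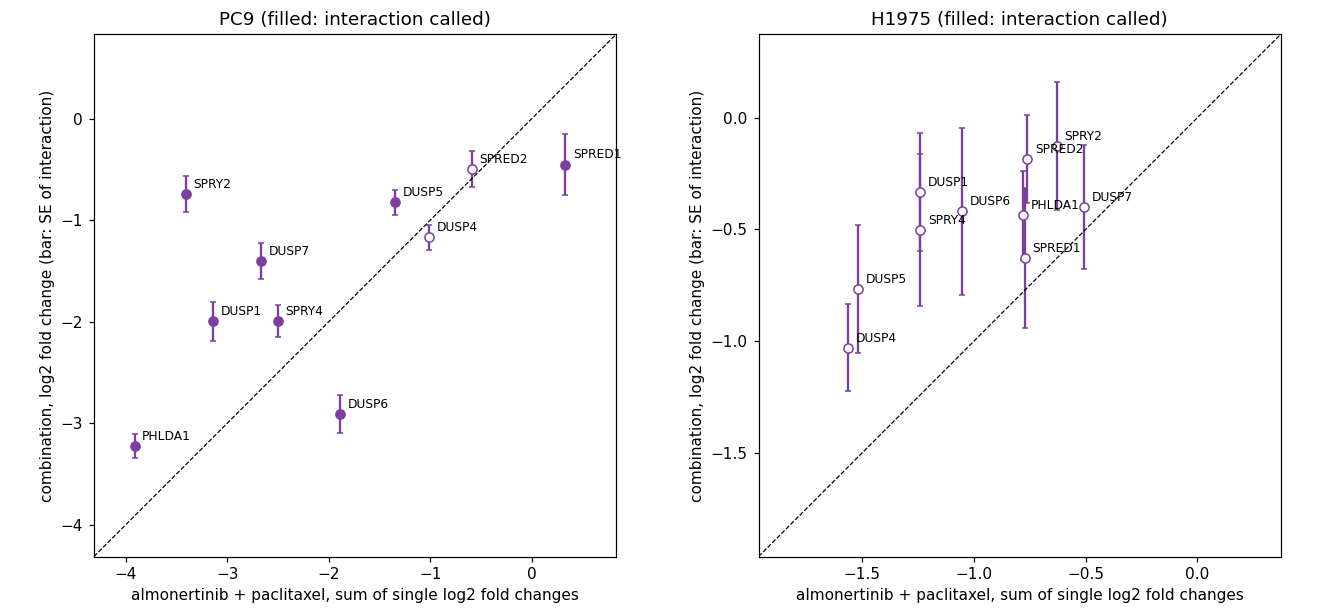
Log2 fold change of the combination against the sum of the log2 fold changes of almonertinib and paclitaxel, each against control, for the 10 members in PC9 (left) and H1975 (right); the dashed line marks equal values, bars are the SE of the interaction and filled points were called. In PC9, SPRY2 lay 2.67 above the line and DUSP6 1.02 below it; in H1975 all 10 points lay above the line and none was called.

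Over the members in PC9, the interaction was called higher than 0 for 6 and lower for 2, where 45.5% of genes were called, 22.1% higher and 23.4% lower, and the member median was 0.52, against 0.0070 over all genes. A positive value means that the combination lowered the mRNA by less than the sum. Whether the combination groups received the single-drug doses is not in the labels, so a dose difference and an interaction cannot be told apart. The SPRED1 interaction was -0.78 ± 0.30 (edgeR adjusted p = 0.0413) and lost its call under 8 of 12 single libraries left out, with values of -0.80 to -0.59. With the trend removed the count was 4 higher and 2 lower, where 44.8% of genes were called: DUSP1, DUSP7, SPRY2 and PHLDA1 remained higher and DUSP6 lower, while DUSP4 entered the lower calls in place of SPRED1. Compared with almonertinib alone, the combination was lower for 5 members, DUSP1, DUSP4, DUSP6, SPRY4 and PHLDA1, and higher for SPRY2, where 20.1% of genes were called, 9.74% lower and 10.3% higher. Compared with paclitaxel alone it was lower for 6 members, DUSP4, DUSP6, SPRY4, SPRED1, SPRED2 and PHLDA1, and again higher for SPRY2, where 44.1% of genes were called, 22.4% lower and 21.7% higher. With the trend removed DUSP1, DUSP5 and DUSP7 were called lower as well, making 9 lower and 1 higher, where 45.5% of genes were called, 21.7% lower and 23.8% higher.

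In H1975 fewer members passed the test. All 30 member values against control were negative, but only 5 were called. Almonertinib lowered DUSP4, DUSP5 and PHLDA1, 3 of 10 members, where 1.95% of 12345 genes were called, 0.599% lower and 1.35% higher. The member median was -0.53, against 0.02 over all genes. The 3 almonertinib libraries lay below all 3 controls for 7 members, where 11.8% of genes did not overlap in either direction. Paclitaxel lowered DUSP4 alone (0.64% of genes called, 0.194% lower), with a member median of -0.32 against -0.03, and 7 members did not overlap (13.8% of genes). The combination also lowered DUSP4 alone (2.46% of genes called, 0.697% lower and 1.77% higher), with a member median of -0.43 against -0.04, and 5 members did not overlap (32.8% of genes). Almonertinib, paclitaxel and the combination share the same control libraries.

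DUSP4 was at 32.8, 25.8 and 27.2 CPM under almonertinib, 34.0, 36.5 and 34.7 CPM under paclitaxel and 27.3, 26.1 and 26.8 CPM under the combination, against 57.5, 56.4 and 48.1 CPM in H1975 control cells. All 9 treated libraries lay below all controls. The log2 fold changes were -0.93 ± 0.14 (edgeR adjusted p = 0.00143), -0.63 ± 0.14 (edgeR adjusted p = 0.0494) and -1.03 ± 0.14 (edgeR adjusted p = 0.000989). The paclitaxel call sat at the threshold and was lost whichever library of paclitaxel or control was left out, with values of -0.70 to -0.59.

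DUSP5 was at 76.4, 47.1 and 38.3 CPM under almonertinib, 76.3, 64.7 and 69.0 CPM under paclitaxel and 69.9, 54.4 and 58.9 CPM under the combination, against 108, 109 and 92.0 CPM in H1975 control cells. Every treated library lay below every control library. The almonertinib value was -0.95 ± 0.20 (edgeR adjusted p = 0.0206). Under the combination DUSP5 was at -0.77 ± 0.20 (edgeR adjusted p = 0.0579), and with the repeat number as a block it was called (-0.77, edgeR adjusted p = 0.0416), which made 2 members. PHLDA1 was at 107, 92.3 and 88.9 CPM under almonertinib, against 139, 140 and 154 CPM in H1975 control cells, and its log2 fold change was -0.60 ± 0.14 (edgeR adjusted p = 0.0377). The PHLDA1 call was lost without almonertinib library 2 (-0.60) or 3 (-0.56) or control library 1 (-0.63), 2 (-0.63) or 3 (-0.55). DUSP5 was lost without almonertinib library 2 (-0.89) or 3 (-0.76) or control library 1 (-0.92) or 2 (-0.92).

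DUSP6 in H1975 rested on few reads, with 27, 46 and 59 raw counts under almonertinib, 62, 48 and 49 under paclitaxel and 44, 43 and 63 under the combination, against 69, 53 and 97 in control cells. Scaled, these were 1.92, 1.96 and 2.48 CPM under almonertinib, against 3.14, 2.99 and 4.58 CPM in control cells. The groups did not overlap, yet the log2 fold change of -0.76 ± 0.26 did not pass the test (edgeR adjusted p = 0.222). SPRY4 stood at 8.19, 5.34 and 4.997 CPM under almonertinib, against 10.2, 10.3 and 10.5 CPM in control cells, without overlap and also without a call (-0.77 ± 0.24, edgeR adjusted p = 0.151). DUSP1 was at 25.4, 26.5 and 29.5 CPM under paclitaxel, against 48.3, 52.8 and 41.6 CPM in H1975 control cells, and missed the threshold as well (-0.82 ± 0.19, edgeR adjusted p = 0.0693). SPRY2 was at 3.95 to 6.13 CPM under almonertinib, against 5.41 to 6.72 CPM in control cells, and those groups overlapped.

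Almonertinib library 1 of H1975 had the highest level among its 3 libraries for DUSP1 (48.4 CPM, against 26.0 and 33.7 CPM), DUSP4, DUSP5, DUSP7, SPRY2, SPRY4 and PHLDA1. Without it, 6 members were called lower under almonertinib, where 7.28% of 12441 genes were called: DUSP1 (-0.66), DUSP7 (-0.66) and SPRY4 (-0.99) joined DUSP4, DUSP5 and PHLDA1. The interaction, called for no member with all libraries (0.672% of genes called, 0.259% higher and 0.413% lower), was then called higher for DUSP1 (1.15), DUSP4 (0.62) and DUSP5 (1.05), where 4.79% of genes were called. With all 12 libraries and no further step, no member and no gene was called between the combination and almonertinib or between the combination and paclitaxel by edgeR, where the libraries of 14.9% and 30.9% of genes did not overlap, although 1230 and 1704 genes had an unadjusted p under 0.05 and DESeq2 called 41 and 478 genes. Other edgeR fits did call genes between the combination and paclitaxel, 56 with RLE factors, 54 with no filter, 3 with the stricter filter, 194 with the trend removed, 822 in a fit of those groups only and 775 with all 24 libraries. Those with the trend removed (1.57% of genes) held DUSP4, lower (-0.68), and DUSP1, higher (0.51). Between the combination and almonertinib 45 genes were called with all 24 libraries and none by the other edgeR fits of all H1975 libraries. Leaving out 1 library gave 0 to 1101 called genes in that comparison, the most without almonertinib library 1. Between the combination and paclitaxel it gave 0 to 424, the most without paclitaxel library 1.

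With the length and GC trend removed, more members were called in H1975. Under almonertinib 9 of 10 members were then called lower, all but SPRY2, where 7.75% of genes were called. DUSP7 is an example, at -0.40 ± 0.20 as counted and -0.45 ± 0.10 with the trend removed (edgeR adjusted p = 0.00975). Under paclitaxel DUSP1, DUSP4 and DUSP5 were called, 3 members, where 3.39% of genes were. Under the combination 7 members were called, DUSP4, DUSP5, DUSP7, SPRY4, SPRED1, SPRED2 and PHLDA1, where 13.2% of genes were. The interaction was called higher for DUSP1 (0.94 ± 0.17) and DUSP5 (0.78 ± 0.18), where 3.05% of genes were called. In PC9 the same step gave 10 of 10 members lower under almonertinib (60.6% of genes called), 8 under paclitaxel (52.5%) and 10 under the combination (57.7%).

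**Figure D4:**
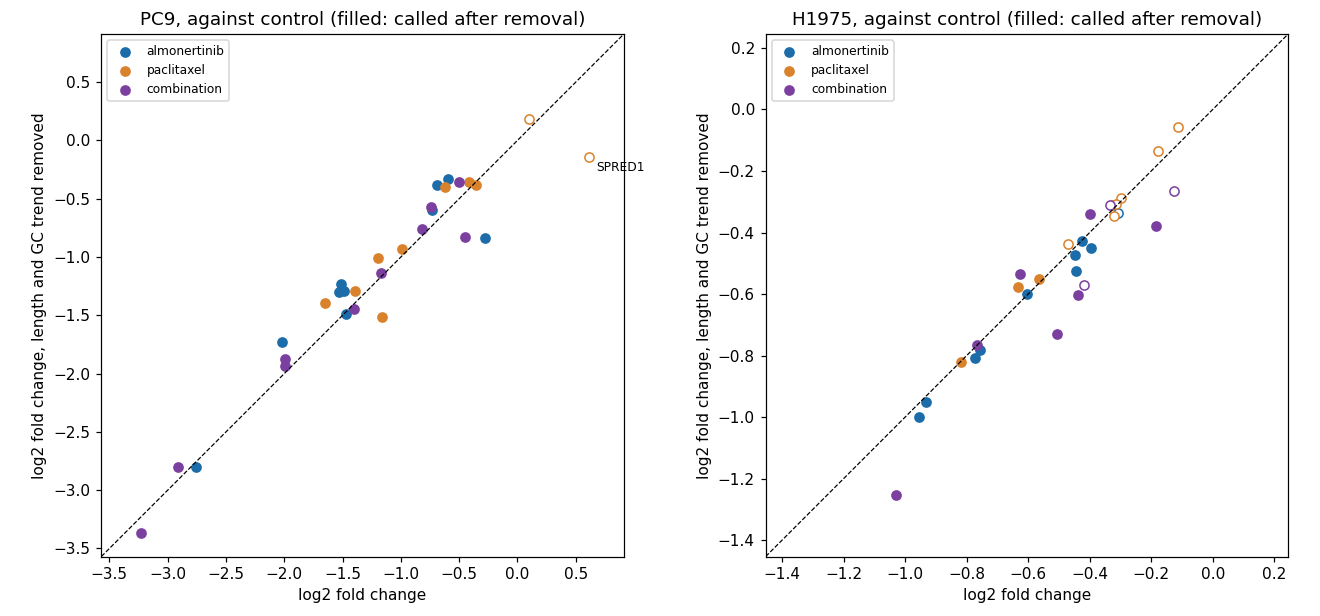
Log2 fold change against control of the 10 members with the length and GC trend removed (vertical) against the value without removal (horizontal), by treatment, in PC9 (left) and H1975 (right); the dashed line marks equal values and filled points were called after removal. Most points follow the line, and SPRED1 under paclitaxel in PC9 lies off it, at 0.61 before removal and -0.14 after.

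The treatment effects themselves were compared between the lines, as PC9 minus H1975 in a fit of all 24 libraries. Under almonertinib 6 members fell further in PC9, where 16.6% of 13380 genes differed, 11% lower and 5.53% higher, with a member median of -0.78, against -0.02 over all genes. PHLDA1 differed most (-2.17 ± 0.15, edgeR adjusted p = 3.76e-10), then SPRY2 (-1.73 ± 0.23), DUSP7 (-1.09 ± 0.25), DUSP1 (-1.09 ± 0.24), DUSP6 (-0.80 ± 0.27, edgeR adjusted p = 0.0464) and SPRY4 (-0.75 ± 0.26, edgeR adjusted p = 0.0490). The calls of DUSP6 and SPRY4 were lost with the trend removed (-0.53 and -0.42). DUSP6 also lost its call without any 1 of 9 of the 12 libraries compared (-0.85 to -0.63), and SPRY4 without any 1 of 10 (-0.81 to -0.49). DUSP4, DUSP5, SPRED1 and SPRED2 did not pass the test. Without H1975 almonertinib library 1, DUSP4 (0.46) and DUSP5 (0.56) were called as lowered less in PC9. With the trend removed, DUSP4 was called in that direction (0.62 ± 0.13, edgeR adjusted p = 0.00106).

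Under paclitaxel 5 members differed, 4 lower and 1 higher, where 17.1% of genes did, 7.21% lower and 9.9% higher. DUSP7 (-1.07 ± 0.25), SPRY2 (-1.06 ± 0.23), PHLDA1 (-0.97 ± 0.15) and DUSP1 (-0.82 ± 0.24) fell further in PC9, and SPRED1 was higher (0.95 ± 0.30). SPRED1 was at 0.19 with the trend removed and no longer called, and it also lost its call without any 1 of 6 libraries (0.85 to 0.98). With the trend removed SPRED2 was called higher (0.49, edgeR adjusted p = 0.0209). The DUSP1 call was lost without H1975 control library 3 (-0.74), H1975 paclitaxel library 3 (-0.73), PC9 control library 2 (-0.75) or 3 (-0.75) or PC9 paclitaxel library 1 (-0.74) or 2 (-0.77). Under the combination 5 members fell further in PC9, where 18% of genes differed, 11% lower and 6.99% higher: PHLDA1 (-2.80 ± 0.16), DUSP6 (-2.50 ± 0.28), DUSP1 (-1.67 ± 0.24), SPRY4 (-1.50 ± 0.26) and DUSP7 (-1.01 ± 0.25). SPRY2, which differed between the lines under each drug alone, had a value of -0.63 ± 0.23 under the combination (edgeR adjusted p = 0.0559), and -0.69 without H1975 control library 2, which was called.

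Across the 12 PC9 libraries, with log2 levels centred on the control mean, the 45 pairs of members had a median Pearson r of 0.72, and 11 pairs reached 0.9. The closest were PHLDA1 with SPRY4 (r = 0.98), DUSP4 with DUSP6 (0.96) and DUSP1 with DUSP5 (0.96). SPRY2 gave 0.75 with DUSP7, 0.70 with DUSP5, 0.23 with DUSP6 and 0.03 with SPRED1. SPRED1 gave 0.87 with SPRED2 and 0.09 with DUSP1. Across the 12 H1975 libraries the median was 0.58, the highest DUSP5 with SPRY4 (0.91) and the lowest DUSP1 with SPRED1 (-0.04). These values describe libraries that share treatments, depth and length trends. Over all 24 libraries, DUSP6 and PHLDA1 were also compared with 9649 genes outside the members, with a mean of at least 5 CPM. Of these, the genes most like DUSP6 were GART (0.938), RRM2 (0.936) and CDC6 (0.9206). The member PHLDA1 gave 0.9210 with DUSP6, above CDC6. Those outside the members most like PHLDA1 were FEN1 (0.98), GLRX3 (0.97) and NDUFAF2 (0.97).

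**Figure D5:**
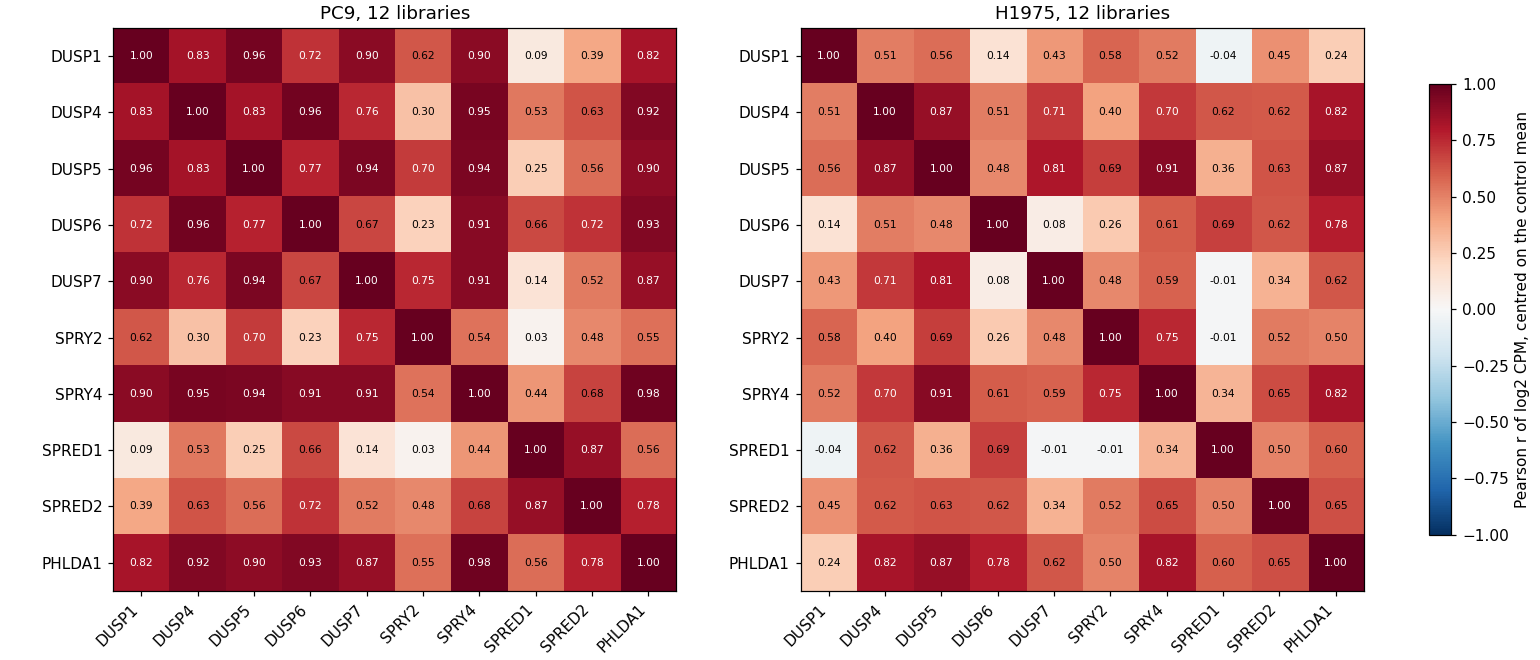
Pearson r between each pair of members over the 12 libraries of PC9 (left) and of H1975 (right), from log2 CPM centred on the control mean of the line. In PC9, PHLDA1 with SPRY4 was highest (0.98) and SPRY2 with SPRED1 lowest (0.03); SPRY2 reached 0.75 with DUSP7 and SPRED1 0.87 with SPRED2.

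Other genes of the pathway are given as counts per list, to be read against all genes tested. In PC9, 27.8% of all genes were called lower and 28.9% higher under almonertinib, 28% and 27% under paclitaxel, and 26% and 24.7% under the combination; in H1975, 1.95%, 0.64% and 2.46% were called in either direction. Of 15 other measured ERK output genes, such as transcription factors that ERK induces, 11 fell and none rose under almonertinib in PC9, with a median of -0.55 and with KLF4 (-2.77 ± 0.11) and FOSL1 (-2.45 ± 0.14) leading by p. Under paclitaxel 8 fell and 2 rose, with a median of -0.26, LIF (-1.34) and EPHA2 (-1.23) leading the falls and KLF5 (0.70) and FOS (0.80) the rises. Under the combination 11 fell and 2 rose, with a median of -0.88. Under almonertinib 13 fell and 2 rose with the length and GC trend removed, where 60.6% of genes were called. KLF4, a zinc-finger transcription factor, had an interaction of 3.23 ± 0.15 (edgeR adjusted p = 1.63e-10), in the direction of SPRY2. It was at 25.1, 27.6 and 27.7 CPM under almonertinib, 79.9, 78.6 and 71.2 CPM under paclitaxel and 102, 105 and 105 CPM under the combination, against 151, 203 and 197 CPM in PC9 control cells. In H1975, 7 fell under almonertinib, with FOSL1 (-1.17 ± 0.22) and ETV4 (-1.14 ± 0.23) leading, none was called under paclitaxel (7 with the trend removed) and 6 fell under the combination.

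Of the 10 paralogs of the members, 2 fell and 1 rose under almonertinib in PC9 (median -0.07), 6 fell under paclitaxel and 3 fell under the combination. PHLDA2, the relative of PHLDA1, had log2 fold changes of -0.77 ± 0.12 under almonertinib and -1.29 ± 0.13 under the combination. In H1975, SPRED3 fell under almonertinib (-1.13 ± 0.22) and the combination (-1.13 ± 0.22), and PHLDA2 fell under both as well (-0.95 and -1.03). The 18 genes of the cascade from RAS to ERK had 7 higher and 5 lower calls in PC9 under almonertinib, a share near that of all genes (56.7%), with SOS1 (1.31 ± 0.23) and SOS2 (1.18 ± 0.22), the RAS exchange factors, leading the rises and the MEK gene MAP2K1 (-1.01 ± 0.08) among the falls. With the trend removed SOS1 was at 0.70 and SOS2 at 0.77, both still called. None of the 18 was called against control in H1975, where few genes were (at most 2.46%). Of 11 other brakes of receptor and RAS signalling, 7 rose and 3 fell under almonertinib in PC9, with the ubiquitin ligase gene CBLB at 0.86 ± 0.11 and the EGFR inhibitor gene ERRFI1 at -0.44 ± 0.10.

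Stress kinase and p38 response genes were listed because DUSP1 also answers to these kinases. In PC9, 6 of 12 fell under almonertinib (median -0.29), 8 fell and 2 rose under paclitaxel (median -0.58), and 5 fell and 1 rose under the combination (median -0.08). The share called in either direction under almonertinib and the combination was no higher than the 56.7% and 50.7% over all genes. All 6 calls under almonertinib and 5 of 6 under the combination were lower, where 27.8% and 26% of all genes were called lower. Under almonertinib 7 fell and 1 rose with the length and GC trend removed, where 60.6% of genes were called. The interaction was called higher for 8 of the 12 and lower for none, with a median of 0.87, where 22.1% of all genes were called higher. JUN had an interaction of 1.83 ± 0.11 (edgeR adjusted p = 2.13e-09), and ATF3, a stress-induced transcription factor, of 3.33 ± 0.21 (edgeR adjusted p = 4.19e-09). ATF3 was at 4.61, 5.002 and 5.54 CPM under almonertinib, 14.7, 15.7 and 14.4 CPM under paclitaxel and 19.1, 20.04 and 21.3 CPM under the combination, against 28.3, 39.4 and 44.4 CPM in PC9 control cells. Its order across the groups was that of SPRY2. In H1975 none of the 12 was called under almonertinib, and KLF6 (-0.85) and ATF3 (-0.82) fell under paclitaxel.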

How the data were processed

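Per the labels, TRIzol was used for RNA and a SMART-RNAseq kit for libraries. The authors deposited 1 table of raw counts, not normalised. Per the submitters' processing notes HISAT2 2.2.1, HTSeq and GRCh38 were used; the HTSeq version, its settings, the annotation and the strand counted are not given in the sources used here. GENCODE v29 on GRCh38 gave symbols, positions and lengths, and RefSeq GRCh38.p14 gave promoter sequences.

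From these counts, edgeR 4.0.16 (R 4.3.3) fitted each line with its 12 libraries (filterByExpr, TMM, quasi-likelihood), leaving 12796 genes in PC9 and 12345 in H1975, and all 24 libraries for comparisons between lines (13380 genes). This made 16 comparisons, each Benjamini-Hochberg adjusted over all genes tested, and genes with an adjusted p under 0.05 were called. The ± of a log2 fold change is an approximate SE. CPM are counts scaled to library size times TMM factor. Total counts per library were 14232299 to 24245314, and counting error weighs most on DUSP6 and SPRY2 in H1975 and SPRED1 in both lines. The script was tested on simulated data with known changes.

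The members and the 5 other lists were chosen with earlier results of these data known, as was the removal of a length and GC trend (spline with 5 degrees of freedom per library). Named beside the members were up to 2 rising and 2 falling called genes of a list with the smallest p. The 3 genes outside the members most like DUSP6 and PHLDA1 were named too. ATF3 and KLF4 were set beside SPRY2 after their values were seen.

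The labels do not say what a repeat number marks. Deviations of same-numbered libraries correlated by more than 0.1 in all 3 pairs for PC9 almonertinib with control (0.119, 0.106 and 0.394) and H1975 combination with control (0.110, 0.169 and 0.345) only, and there the pairing comes from the data. Tried as alternatives were RLE factors, omitting the filter, a filter asking for a mean of 5 CPM and 1 CPM in 3 libraries, the block, the length and GC trend with and without the block, DESeq2 1.42.0, other sets of libraries in the fit and leaving out each library.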

Additional observations from a re-analysis of the deposited data

Results flagged for a closer look

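Effects of the same treatment differed between the lines, tested as PC9 minus H1975 with edgeR, in 16 of 30 member values, 15 of them lower in PC9. Over all genes 16.6% differed under almonertinib, 17.1% under paclitaxel and 18% under the combination. Under almonertinib the log2 differences were -2.17 for PHLDA1, -1.73 for SPRY2, -1.09 for DUSP7, -1.09 for DUSP1, -0.80 for DUSP6 and -0.75 for SPRY4, and the calls of DUSP6 (edgeR adjusted p = 0.0795) and SPRY4 (0.122) were lost with the length and GC trend removed. Under paclitaxel they were -1.07 for DUSP7, -1.06 for SPRY2, -0.97 for PHLDA1, -0.82 for DUSP1 and 0.95 for SPRED1, which was lost in the same way (edgeR adjusted p = 0.490). Under the combination they were -2.80 for PHLDA1, -2.50 for DUSP6, -1.67 for DUSP1, -1.50 for SPRY4 and -1.01 for DUSP7. The doses differed between the lines, so line and dose cannot be told apart.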

How the results depend on the processing

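Of 75 member calls, RLE factors kept 74, no filter 72, the stricter filter 73, the replicate block 73, DESeq2 75 and the removal of the length and GC trend 68 with 28 gained; a fit of the groups compared kept 59 of 67 with 11 gained, and one of all 24 libraries 48 of 53 with 7 gained. The cause of changes was not tested. Over 1835 values of 112 member results, which leave out uncalled values under 0.5 on the log2 scale in comparisons other than treatment with control, 1670 stayed on their side of the threshold, 93 lost and 68 gained a call, and 4 reversed: SPRED1 under paclitaxel in PC9 at -0.14 with the trend removed, with or without the replicate block, and its PC9 interaction at 0.15 with the trend removed and 0.16 with the block added. Among the results left out, uncalled values near 0 also changed sign with the trend removed, such as SPRED2 in the PC9 interaction (-0.15, against 0.09) and SPRED1 in the line difference under almonertinib (-0.29, against 0.15) and combination (-0.27, against 0.16). In H1975 the members called under almonertinib (3) became 9 with the trend removed, 9 with the block added, 5 with DESeq2, 0 in a fit of the groups compared and 5 with all 24 libraries. Under paclitaxel (1) they became 0 with RLE factors, 0 with the block, 3 with the trend removed, 3 with the block added, 2 with DESeq2 and 2 with all 24 libraries. Under the combination (1) they became 2 with no filter, 2 with the stricter filter, 2 with the block, 7 with the trend removed, 7 with the block added, 3 with DESeq2, 4 in a fit of the groups compared and 3 with all 24 libraries. Between combination and paclitaxel (0) they became 2 with the trend removed, 1 with the block added, 2 in a fit of the groups compared and 1 with all 24 libraries. For the interaction (0) they became 2 with the trend removed, 2 with the block added, 1 with DESeq2 and 1 with all 24 libraries. Leaving out 1 library gave 1 to 6 members under almonertinib, 0 to 0 under paclitaxel and 0 to 3 for the interaction in H1975, and 3 to 5 for the line difference under paclitaxel. The replicate block also moved PHLDA1 under almonertinib (edgeR adjusted p = 0.0623) and DUSP4 under paclitaxel (0.0948) in H1975 past the threshold, and brought SPRED1 under the combination (0.0334) and DUSP1 between combination and paclitaxel (0.0400) in PC9 under it, in groups that share only a number; apart from DUSP5 in H1975 it changed no other call. Over all genes, H1975 calls with the trend removed numbered 957, 418 and 1631 under almonertinib, paclitaxel and combination, against 241, 79 and 304 without that step. DUSP6 in H1975 had 27 to 97 counts in a library, at a level of 1.92 to 4.58 CPM.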
